A study of Mus musculus with 3 samples.

Results

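Sphingosine-1-phosphate (S1P) is a lipid signal that is made inside cells, carried out of them and read by receptors on the cell surface. The genes of this system followed here, chosen by their symbols, were S1pr1, S1pr3, Spns2, Sphk1, Sphk2 and Plpp3. They were measured in sorted cells of the mouse small intestine and are 6 of the 32285 genes in the files. Sphk1 and Sphk2 encode the kinases that make S1P, Spns2 its transporter, S1pr1 and S1pr3 receptors, and Plpp3 a phosphatase. The rule of choice used no measured value, but it was made with earlier results of these data known.

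Droplet single-cell libraries with 3′ chemistry (Chromium, version 3) were made from 3 samples, named here libraries 1, 2 and 3, which form 1 group. Every sample was the small intestine without duodenum of 4 wild-type C57Bl/6 females aged 9-10 weeks, with no treatment named. The epithelium had been stripped with EDTA and DTT, the rest digested for 60 min at 37 °C with Liberase TL and DNase I, and live CD45- CD31+ PDPN+ cells sorted. PDPN, podoplanin, is a surface protein of lymphatic endothelium, and CD31 of endothelium at large. Since the labels name 1 group and do not say whether samples shared animals, all comparisons lie between cell classes of the same libraries, and p-values reach no further than the spread among these 3 libraries.

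S1P is abundant in blood and lymph and scarce in tissue, and this gradient guides lymphocytes out of tissues. Sphingosine, released from ceramide by ceramidases, is phosphorylated by the sphingosine kinases, and Spns2 carries the product out of endothelial cells. In mice, loss of Spns2 from lymphatic endothelium lowers S1P in lymph. S1pr1 couples to inhibitory G proteins, tightens endothelial junctions and lets T cells sense the gradient, while S1pr3 also couples to G proteins of the Gq and G12/13 families. Plpp3 ends the signal by removing the phosphate of S1P and of the related lysophosphatidic acid outside the cell.

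The files held 6931, 7678 and 9932 barcodes with 58857545, 69231794 and 74571090 unique molecular identifiers (UMIs, counts of captured RNA molecules) in libraries 1, 2 and 3. After barcodes with fewer than 500 genes or over 15% mitochondrial UMIs were removed, 22534 remained, with median depths of 7979, 7264 and 6698 UMIs. Lymphatic endothelial cells (LEC) were barcodes with at least 1 UMI of Prox1 and 5 of Lyve1, and numbered 5689, 5001 and 8264, or 18954 in all. Blood endothelial cells (BEC; at least 3 UMIs of Flt1, none of Prox1) numbered 38, 83 and 77, and stroma (at least 3 of Dcn) 78, 313 and 153. T cells numbered 13, 52 and 32, and epithelial cells 111, 371 and 96. The stroma gate also asked for no UMI of Prox1, Pecam1 (the gene of CD31), Epcam or Ptprc. It thus left out barcodes with this endothelial gene, and its part in the stromal levels of S1pr1 and Spns2 below was not tested. The Lyve1 threshold keeps LEC of low Lyve1 or low depth out of the class. BEC (0.879% of cells), stroma (2.41%) and T cells (0.430%) were few, because the sort aimed at CD45- CD31+ PDPN+ cells. They may not represent these classes in the tissue at large. Pairs of libraries shared 13 to 30 barcode sequences.

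Genes outside the gates were used to check them. A list of 6 lymphatic markers (Flt4, Ccl21a, Reln and others) summed to 13615 ± 733 CPM (UMIs of a gene scaled to all UMIs of its class in a library, the usual unit) in LEC and 322 ± 111 CPM in BEC (SD, n = 3), and its member Mmrn1 had no UMI. Blood endothelial markers summed to 1089 ± 57.0 CPM in LEC and 5278 ± 1418 CPM in BEC, where Plvap stood at 2811 ± 759 CPM. Most of the LEC sum was 1 marker, Kdr. In LEC with no UMI of Ptgs2, a group used below, Kdr had 1102, 961 and 1037 of 1157, 1048 and 1088 CPM. The BEC gate also held RNA of other cells: Acta2, a smooth muscle gene, lay between 624 and 4178 CPM, and the stromal collagen gene Col3a1 between 201 and 2088 CPM. The stroma gate had 15012 ± 1175 CPM of its own markers and 8465 ± 3729 CPM of mural markers, so it was not purely fibroblastic.

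S1pr1 (chromosome 3, 115710433 to 115715072, minus strand, GRCm38) was an endothelial gene in these cells. It reached 462, 362 and 396 CPM in LEC of libraries 1, 2 and 3, against 423, 333 and 212 CPM in BEC and 1.28, 3.05 and 1.53 CPM in stroma. LEC exceeded BEC in each library, but the ranges of the 2 classes overlapped. The log2 fold change was 0.38 ± 0.19 (SE, 95% interval 0.01 to 0.76) between LEC and BEC, with an adjusted p of 0.187 in edgeR's quasi-likelihood test. The unadjusted p of that test was 0.0704, although the interval, built with a normal multiplier, excludes 0. A difference that does not pass does not show equal levels, and the order turned when BEC with mural or stromal RNA were left out, as described with S1pr3. Between LEC and stroma the difference was 7.43 ± 0.24 (adjusted p = 2.51e-06, edgeR), and the mean level was 208-fold higher in LEC.

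The S1pr1 level of stroma can be set beside that of free RNA from burst LEC. S1pr1 in stroma amounted to 0.277%, 0.844% and 0.387% of the LEC level, and the lymphatic chemokine Ccl21a to 0.795%, 0.694% and 0.818%. Stromal S1pr1 was thus below the Ccl21a share in libraries 1 and 3 and above it in library 2. Epithelial cells had S1pr1 at 0.580%, 0.741% and 0.406% of the LEC level.

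T cells, which follow S1P through S1pr1, stood between these levels. They had 56.4 and 49.8 CPM of S1pr1 in libraries 2 and 3, and no UMI in the 13 T cells of library 1, which were too few to enter a test. This was 15.6% and 12.6% of the LEC level, against 2.44% and 0.895% for Ccl21a in the same T cells. Over libraries 2 and 3, S1pr1 was 7.13-fold higher in LEC than in T cells (379 and 53.1 CPM on average), with a log2 fold change of 2.90 ± 0.29 (adjusted p = 7.80e-22, edgeR). That p rests on the spread of all genes as much as on 2 libraries. The median tested gene was itself 0.55 higher in LEC on the log2 scale. Macrophages with at least 20 cells had 30.9 and 24.7 CPM (libraries 2 and 3).

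Spns2 (chromosome 11, 72451638 to 72489904, minus strand), the exporter, was shared by both endothelial classes. Its levels were 133, 121 and 127 CPM in LEC, against 147, 128 and 63.9 CPM in BEC and 6.40, 3.73 and 3.83 CPM in stroma. LEC values lay within the range of BEC, with a log2 fold change of 0.26 ± 0.23 (adjusted p = 0.478, edgeR, 95% interval -0.19 to 0.70). Against stroma, LEC were 27.3-fold higher (4.93 ± 0.17, adjusted p = 2.72e-06), and against T cells 28.1-fold (4.97 ± 0.60, adjusted p = 1.66e-15, libraries 2 and 3).

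Spns2 in stroma made up 4.80%, 3.08% and 3.01% of the LEC level, above the Ccl21a share in all 3 libraries. Epithelium, with 5.22%, 3.76% and 5.36%, was as high. Counting is a caveat here, because the gene overlaps Mybbp1a on the other strand and the sources used here do not name the strand setting of the counting.

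Plpp3 (chromosome 4, 105157347 to 105232764, plus strand) was lower in LEC than in BEC and stroma. It stood at 396, 341 and 356 CPM in LEC, against 1830, 1353 and 1664 CPM in BEC and 1574, 923 and 1294 CPM in stroma. The groups did not overlap. The log2 fold change was -2.14 ± 0.15 between LEC and BEC (adjusted p = 1.00e-06, edgeR), with a mean level 4.43-fold higher in BEC, and -1.71 ± 0.12 between LEC and stroma (adjusted p = 3.53e-05). T cells, with 9.96 and 60.9 CPM in libraries 2 and 3, were lower than LEC, by a log2 fold change of LEC over T cells of 3.63 ± 0.33 (adjusted p = 2.87e-26, edgeR). In epithelium it stood at 5.62, 13.2 and 8.43 CPM, and in the mural class at 142 and 257 CPM (libraries 2 and 3). LEC thus lay below BEC and stroma and above T cells, mural cells and epithelium, of which mural cells and epithelium enter no test.

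S1pr3 (chromosome 13, 51408639 to 51422797, plus strand) was almost without UMIs in LEC. Its levels were 0.283, 1.11 and 0.466 CPM in LEC (90 UMIs in 18954 cells), against 50.2, 27.3 and 27.4 CPM in the whole BEC gate (53 UMIs) and 76.8, 65.1 and 40.6 CPM in stroma (305 UMIs). LEC did not overlap with either class. The log2 fold changes were -5.88 ± 0.68 for LEC over BEC (adjusted p = 5.88e-05, edgeR) and -6.57 ± 0.38 for LEC over stroma (adjusted p = 1.40e-05). The LEC level was 0.368%, 1.70% and 1.15% of the stromal level, and the stromal collagen gene Col3a1 in LEC was at 0.319%, 1.40% and 0.546% of its stromal level. The share of S1pr3 was above that of Col3a1 in all 3 libraries.

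Most of these LEC UMIs came from few barcodes. After the values were seen, LEC were split by the fixed lists of epithelial, stromal and mural markers (6 genes each), and 547 of the 18954 had more than 2 UMIs of a list. These are called LEC with RNA of other classes below. Markers of blood endothelium, T cells, macrophages and plasma cells did not enter the split. Of the 90 S1pr3 UMIs, 71 lay in 34 of these 547 barcodes, at 7.43, 6.44 and 8.06 CPM. The other 18407 LEC held 19 UMIs, in 19 cells, at 0.103, 0.112 and 0.167 CPM. The LEC with RNA of other classes were deeper, with median UMIs of 11932, 13272 and 12366 against 8131, 7101.5 and 6773. Whether they are doublets was not tested. S1pr1 stood at 210, 158 and 214 CPM in them, against 468, 400 and 403 CPM in the other LEC.

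Sphk1 (chromosome 11, 116530925 to 116536674, plus strand) was also lower in LEC. It had 2.0, 3.59 and 1.93 CPM in LEC, against 16.7, 19.1 and 32.6 CPM in BEC and 23.0, 21.0 and 26.8 CPM in stroma. LEC lay below both classes in all 3 libraries, by a log2 fold change of -3.23 ± 0.53 against BEC (adjusted p = 7.69e-04, edgeR) and -3.19 ± 0.32 against stroma (adjusted p = 1.87e-04). At 8.67%, 17.1% and 7.19% of the stromal level, Sphk1 in LEC lay above the collagen genes. Epithelium had 8.83, 6.88 and 11.2 CPM.

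Sphk2 (chromosome 7, 45709467 to 45718002, minus strand), the second kinase, had no called difference among vascular and stromal classes. It stood at 11.5, 13.8 and 12.5 CPM in LEC, against 16.7, 6.82 and 7.82 CPM in BEC (15 UMIs in all) and 14.1, 13.2 and 16.9 CPM in stroma. The ranges overlapped. Neither difference passed the test, with log2 fold changes of 0.49 ± 0.44 (adjusted p = 0.478, edgeR, 95% interval -0.37 to 1.34) against BEC and -0.14 ± 0.20 (adjusted p = 0.680, interval -0.54 to 0.26) against stroma. The highest level was in epithelium, at 40.7, 34.8 and 39.3 CPM, a class that enters no test here. Sphk2 overlaps Dbp and Rpl18 on the opposite strand, and reads of these genes cannot be told apart without the strand setting. The same holds for S1pr3 with Gm32834 and Sphk1 with Gm29292.

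**Figure D1:**
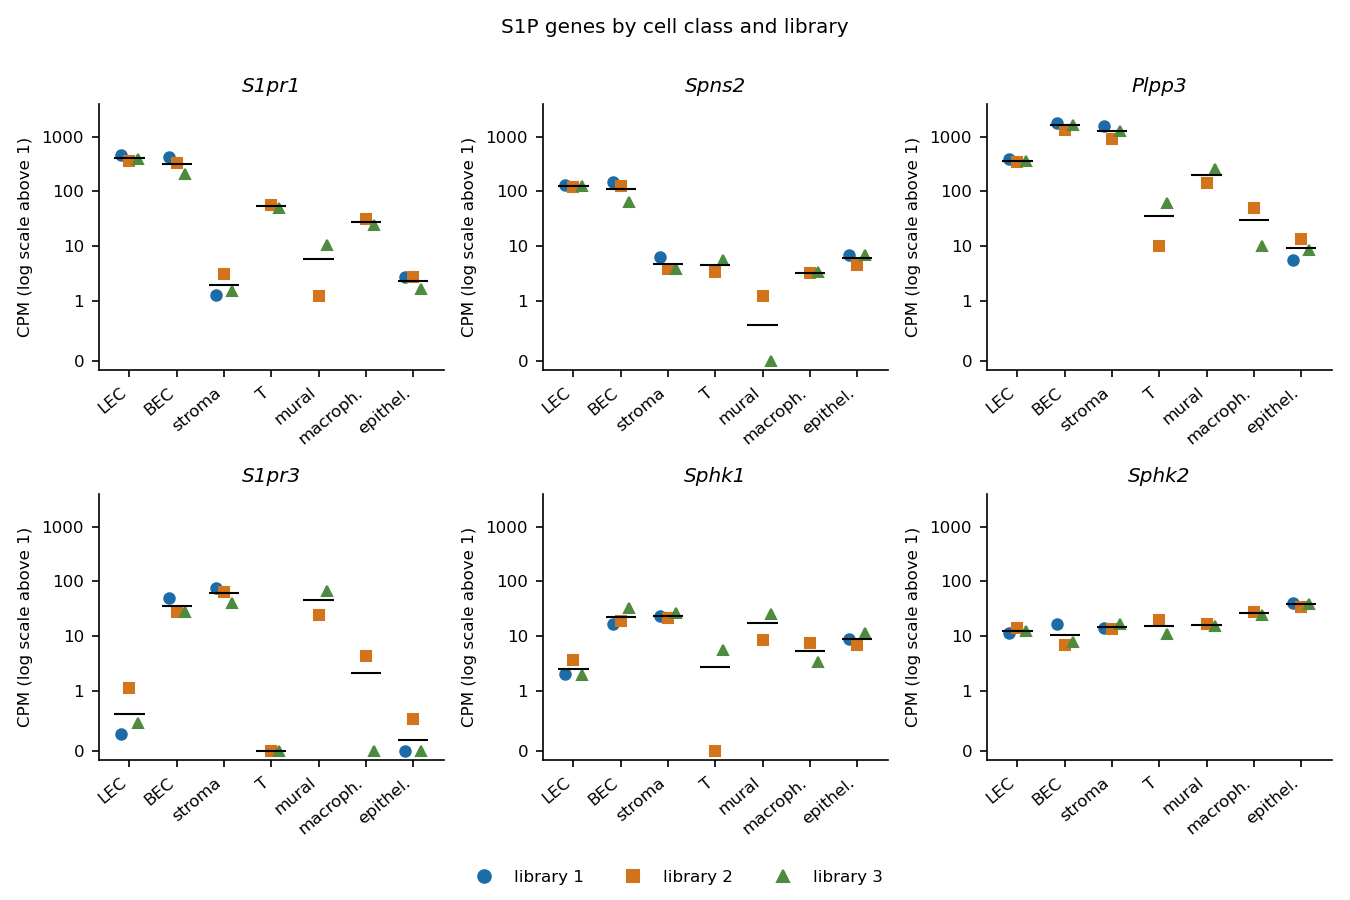
CPM (y axis, logarithmic above 1) of the 6 S1P genes in each cell class (x axis), with 1 point per library of at least 20 cells and a bar at the mean. S1pr1 and Spns2 stand high in LEC and BEC, S1pr3 and Sphk1 in the whole BEC gate and stroma, and Plpp3 reaches 364 ± 28.2 CPM in LEC below 1616 ± 242 CPM in BEC. All S1pr3 UMIs of BEC lay in barcodes with mural or stromal RNA.

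In counts, 3 of the 6 genes were lower in LEC than in BEC (Plpp3, Sphk1, S1pr3) and none was higher, where 23.3% of 13724 tested genes passed, 12.1% lower and 11.2% higher. Against stroma, 2 were higher (S1pr1, Spns2) and 3 lower, where 49.1% of 14402 genes passed, 26.1% higher and 23% lower. Against T cells, 3 of the 5 tested were higher (S1pr1, Spns2, Plpp3), where 28.6% of 13724 genes passed, 18.4% higher and 10.3% lower. Sphk1 and Sphk2 did not pass there, and S1pr3, with 90 UMIs in LEC and none in T cells over all libraries, could not be tested. Few members and high backgrounds leave these counts as a description.

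Between the other classes, for BEC over stroma, S1pr1 differed by 7.07 ± 0.31 on the log2 scale (adjusted p = 3.42e-05, edgeR) and Spns2 by 4.69 ± 0.29 (adjusted p = 5.56e-05). Plpp3 was at 0.39 ± 0.17 (adjusted p = 0.137), Sphk1 at 0.01 ± 0.28 (adjusted p = 0.990) and Sphk2 at -0.72 ± 0.41 (adjusted p = 0.239), none past the threshold. S1pr3 was lower in BEC, -0.83 ± 0.24 (adjusted p = 0.0383). Its call was lost in DESeq2 (adjusted p = 0.217) and without library 2 (adjusted p = 0.321). In this comparison 27.9% of 8272 genes passed, 15.3% higher and 12.5% lower in BEC.

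**Figure D2:**
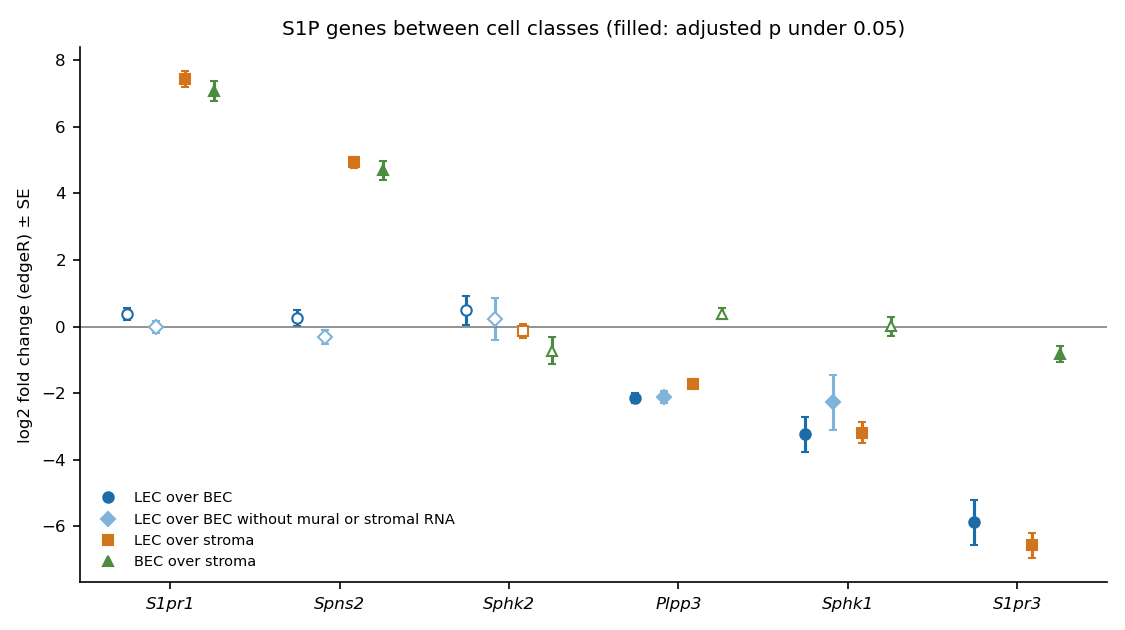
Log2 fold change with SE (y axis) of each S1P gene (x axis) for LEC over BEC, LEC over BEC without mural or stromal RNA, LEC over stroma and BEC over stroma, where filled symbols have an adjusted p under 0.05. S1pr1 and Spns2 lie near 0 between LEC and BEC and far above 0 against stroma, and S1pr3 for LEC over the whole BEC gate is at -5.88.

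The S1pr3 signal of the BEC gate came from a minority of its barcodes. After the values were seen, BEC were split by mural RNA (Acta2, Tagln, Rgs5, Des) and stromal RNA (Dcn, Col1a1, Col1a2, Col3a1). Barcodes with more than 2 UMIs of either set numbered 7, 23 and 47 (77 in all), and those with at most 2 of each 31, 60 and 30 (121 in all). All 53 S1pr3 UMIs lay in 16 of the 77 barcodes with such RNA, at 190, 74.8 and 33.1 CPM. The 121 others had none, which allows a share of up to 2.48% of cells with a UMI, or 3.88 CPM over their sum (3 counts). The barcodes with mural or stromal RNA were also deeper, with median UMIs of 8331, 11286 and 13057 against 4906, 5997.5 and 4495.5. Whether they are doublets, carry free RNA or are cells of another kind was not tested.

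The endothelial genes did not follow S1pr3 in this split. S1pr1 stood at 443, 187 and 173 CPM in the barcodes with mural or stromal RNA, against 416, 416 and 400 CPM in those without, lower with such RNA in libraries 2 and 3 only. Spns2 stood at 111, 59.8 and 48.8 CPM with such RNA, against 159, 167 and 136 CPM without, lower in all 3. Plpp3 had 1470, 1514 and 1673 CPM with it and 1959, 1260 and 1624 CPM without, so its ranges overlapped.

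**Figure D3:**
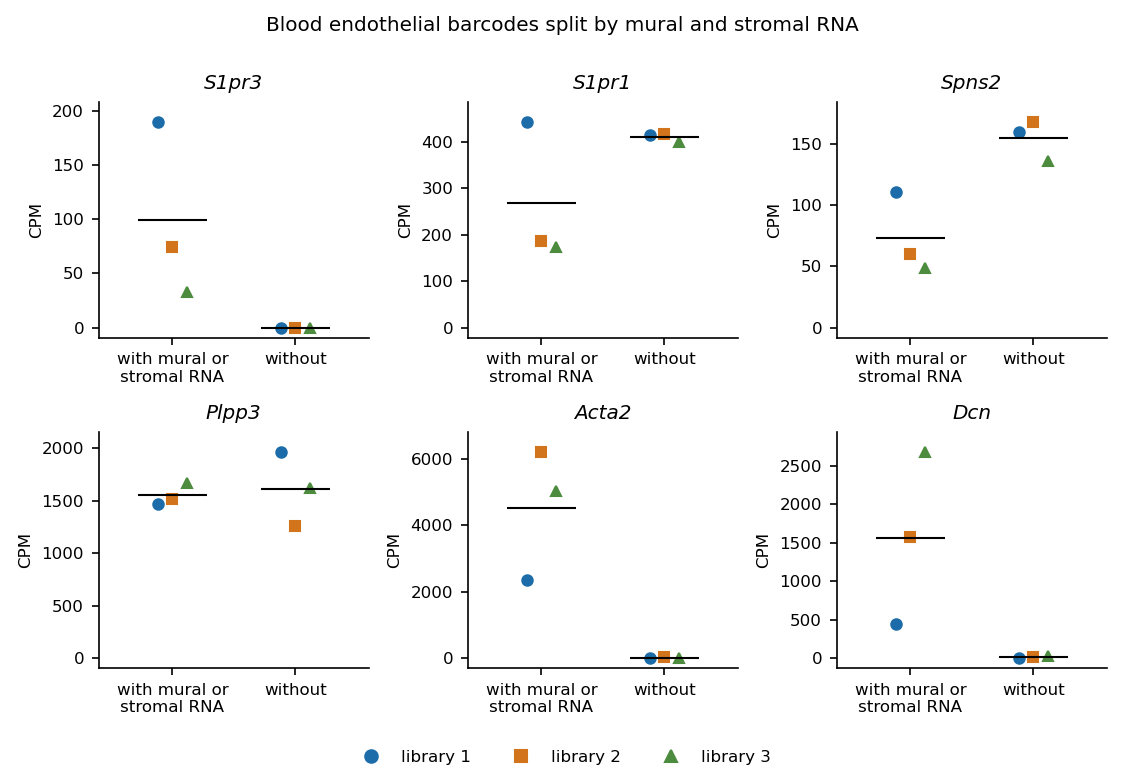
CPM (y axes) of 4 S1P genes and of the mural gene Acta2 and the stromal gene Dcn in BEC with and without mural or stromal RNA, with 1 point per library and a bar at the mean. S1pr3 is at 0 in all 3 libraries without such RNA, and Acta2 and Dcn differ because the split used them.

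With the 121 barcodes as the blood endothelial class, S1pr1 did not pass, at a log2 fold change of -0.02 ± 0.19 for LEC over BEC (adjusted p = 0.962, edgeR, 95% interval -0.39 to 0.34). Spns2 turned to -0.31 ± 0.21 (adjusted p = 0.369), lower in LEC in 3 of 3 libraries. Plpp3 kept its difference, -2.11 ± 0.17 (adjusted p = 2.88e-32), and Sphk1 passed at -2.28 ± 0.84 (adjusted p = 0.0350), with 12.5 ± 4.78 CPM and 10 UMIs in this BEC class. In this fit 2 members of 5 tested passed, and 19.9% of 13256 genes. The difference in S1pr3 between LEC and BEC thus rested on the barcodes with mural or stromal RNA.

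Set against stroma, the same 121 BEC had S1pr1 higher by 7.38 ± 0.32 and Spns2 by 5.12 ± 0.34 (adjusted p = 2.07e-12 and 4.56e-10, edgeR) and S1pr3 lower (adjusted p = 2.77e-06), where 38.3% of 7589 genes passed. With no S1pr3 UMI in these BEC, the fitted fold is no bound. Plpp3 (0.32 ± 0.17, adjusted p = 0.163) and Sphk1 (-0.84 ± 0.48, adjusted p = 0.186) did not pass. A like split of stroma gave a different picture for the same receptor. S1pr3 stood at 60.2 ± 15.5 CPM in the 467 stromal cells with more than 2 UMIs of the mural set and 63.6 ± 49.3 CPM in the 77 with fewer (SD, n = 3), although Acta2 was at 3931 ± 1355 and 33.6 ± 12.1 CPM. The mural class itself, for which only libraries 2 and 3 reached 20 cells, had 24.3 and 66.9 CPM of S1pr3. The like means of the 2 parts of stroma hid unlike directions. S1pr3 stood at 120, 38.2 and 32.2 CPM in stroma with less mural RNA, against 69.8, 68.4 and 42.3 CPM with more. In library 1 the part with less mural RNA held only 14 cells. In library 3 all its 7 S1pr3 UMIs lay in 1 of 28 cells. S1pr3 was thus present in both parts, and the difference between them was not tested.

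The stretches before the start sites of S1pr3 and Plpp3, a receptor and a phosphatase gene with less RNA in LEC than in stroma, are shown to place them on the genome. They are the 250 bases before the RefSeq start (GRCm38.p6, plus strand) of S1pr3, chr13:51408368-51408617, and of Plpp3, chr4:105157097-105157346.
S1pr3: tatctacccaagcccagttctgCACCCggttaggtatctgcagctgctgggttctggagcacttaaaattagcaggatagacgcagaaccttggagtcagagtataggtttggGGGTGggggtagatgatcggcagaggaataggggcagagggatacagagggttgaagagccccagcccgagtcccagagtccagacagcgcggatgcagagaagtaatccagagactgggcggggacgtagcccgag
Plpp3: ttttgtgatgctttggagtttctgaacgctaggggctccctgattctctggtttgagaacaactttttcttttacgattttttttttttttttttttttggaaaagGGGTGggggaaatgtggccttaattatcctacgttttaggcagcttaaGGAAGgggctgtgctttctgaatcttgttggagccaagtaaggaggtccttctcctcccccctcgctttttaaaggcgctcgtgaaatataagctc
Capitals mark 2 short cores on either strand: GGAAG, the core of ETS factors, which act in endothelium, and CACCC, the core of Krüppel-like factors such as Klf2. S1pr3 held 2 matches to CACCC and 0 to GGAAG, and Plpp3 held 1 of each, without overlap between motifs. Of 32851 such windows in the RefSeq table, 64.1% held GGAAG and 52.0% CACCC, so matches are common. Of the 6 genes, 5 had an entry in the table.

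Spread within LEC was measured after every cell was thinned to 3000 UMIs, which left out 158, 127 and 175 shallower cells. S1pr1 was then seen in 73.2%, 66.0% and 67.8% of LEC, Plpp3 in 67.4%, 63.6% and 63.2%, and Spns2 in 32.9%, 31.7% and 32.5%. Without thinning the mean shares were 91.2% for S1pr1, 88.0% for Plpp3 and 60.3% for Spns2, so a share measures depth as well as expression. In epithelium thinned the same way, S1pr1 was seen in 2.78%, 1.39% and 0% of cells and Spns2 in 1.85%, 1.94% and 2.2%. The LEC shares stood above these epithelial shares in all 3 libraries.

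The 3 scarcer genes were seen in few LEC. Thinned shares were 3.52% ± 0.230 for Sphk2 and 0.732% ± 0.204 for Sphk1 (SD, n = 3). S1pr3 was seen in 0.0181%, 0.226% and 0.0618% of LEC. These shares are near the level of single UMIs and carry no reading of cells with and without the gene.

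Receptor and exporter were seen together in 24.8%, 20.8% and 21.9% of LEC, and the product of their single shares was 24.1%, 20.9% and 22.1%. They thus met in single LEC about as often as their own shares give.

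**Figure D4:**
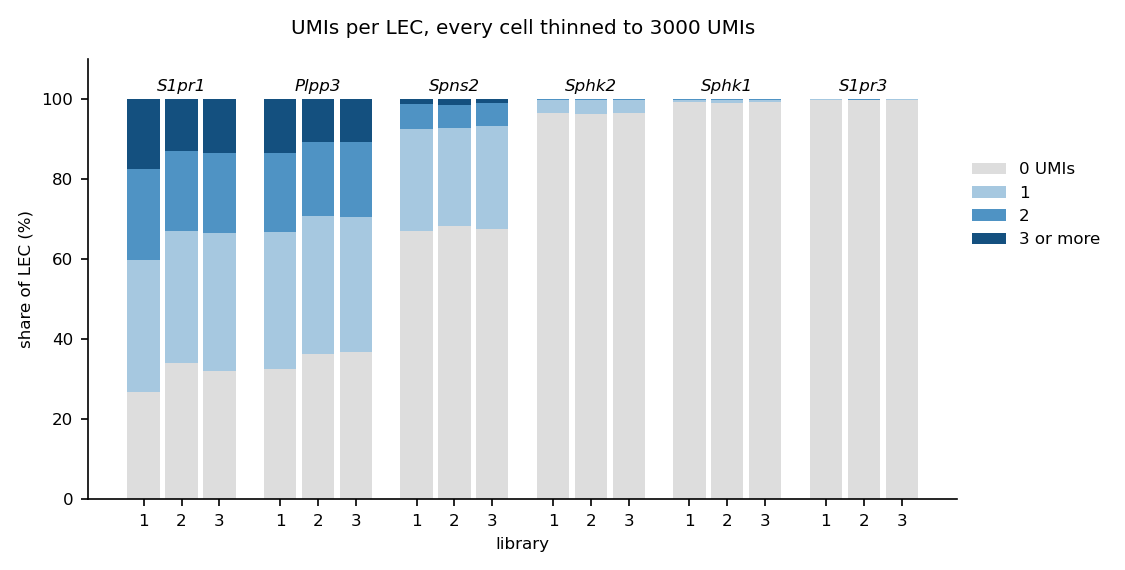
Share of LEC in percent (y axis) with 0, 1, 2 or at least 3 UMIs of each S1P gene after thinning every cell to 3000 UMIs, with 1 bar per library (x axis). S1pr1 was seen in 66.0% to 73.2% of LEC and Spns2 in 31.7% to 32.9%.

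Groups of LEC were compared next, defined by genes other than the 6 and each tested within libraries. The exporter differed between LEC on the Clca3a1 side (at least 2 UMIs of Clca3a1 and none of Itih5, in 572, 586 and 597 cells) and on the Itih5 side (the reverse, in 1713, 1042 and 2064 cells). Spns2 stood at 166, 163 and 154 CPM on the Clca3a1 side, against 116, 98.9 and 105 CPM on the Itih5 side, without overlap. The log2 fold change was 0.65 ± 0.06 (adjusted p = 1.28e-04, edgeR), in the same direction in 3 of 3 libraries. S1pr1, at 458, 372 and 376 CPM against 457, 367 and 409 CPM, was at 0.02 ± 0.05 (adjusted p = 0.837, 95% interval -0.08 to 0.13).

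Both other calls on this axis were smaller or rarer. Plpp3 had 422, 383 and 403 CPM on the Clca3a1 side and 381, 321 and 343 CPM on the Itih5 side (0.27 ± 0.05, adjusted p = 0.00827, edgeR), a call that the fit without the library block did not keep (adjusted p = 0.101). Sphk1, at 2.75, 5.44 and 3.16 CPM against 1.75, 1.85 and 1.5 CPM, was higher by 1.16 ± 0.33 (adjusted p = 0.0340). That call was lost in DESeq2 (adjusted p = 0.233), without the block (0.0849), without library 2 (0.152) and without library 3 (0.124). With these, 3 of 5 tested members were higher, where 21.3% of 12198 genes passed, 9.95% higher and 11.4% lower. Sphk2 did not pass. Median UMIs were 7618.5, 7167 and 6665 on the Clca3a1 side and 9361, 8341.5 and 7807 on the Itih5 side, and Spns2 was at 0.59 (adjusted p = 1.55e-08) among cells of 5000 to 10000 UMIs only. Stromal markers summed to 20.8, 40.8 and 23.7 CPM on the Clca3a1 side, against 95.7, 328 and 203 CPM on the Itih5 side, with 5 of 6 lower in all 3 libraries. Blood endothelial markers, which the split of LEC did not use, summed to 1288.5, 1216 and 1131 CPM on the Clca3a1 side, against 1087, 931 and 1046 CPM. Most of both sums was Kdr, at 1177, 1024 and 1057 CPM against 1044, 890 and 1001 CPM. Of these 6 markers, 4 were higher and 0 lower on the Clca3a1 side in all 3 libraries. With the LEC with RNA of other classes left out, Spns2 was at 0.63 ± 0.06 (adjusted p = 4.24e-09), Plpp3 at 0.28 ± 0.05 (adjusted p = 1.18e-04) and Sphk1 at 1.52 ± 0.33 (adjusted p = 0.00110). These were again 3 of 5 tested, where 30.4% of 11491 genes passed.

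Cycling LEC (at least 3 UMIs of Mki67 and Top2a together; 76, 100 and 85 cells) had less of the 3 common S1P genes. Spns2 stood at 72.7, 54.7 and 65.3 CPM in cycling LEC, against 135, 128 and 130 CPM in LEC with neither gene. Plpp3 stood at 214, 153 and 187 CPM against 402, 359 and 362 CPM. Neither pair of ranges overlapped, and the log2 fold changes were -1.14 ± 0.12 for Spns2 (adjusted p = 1.40e-04, edgeR) and -1.14 ± 0.13 for Plpp3 (adjusted p = 1.69e-04).

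S1pr1 followed more weakly, with 361, 171 and 293 CPM in cycling LEC and 465, 379 and 402 CPM in the others (-0.76 ± 0.16, adjusted p = 0.00566, edgeR). That call was lost without the library block (adjusted p = 0.0709) and without the 5% of cells with most UMIs (0.107). With 3 of 5 tested members lower, 39.6% of 13853 genes passed, 18.6% lower and 21% higher in cycling LEC, and Sphk1 and Sphk2 did not pass. The lymphatic regulator Prox1 itself stood at 609, 304 and 468 CPM in cycling LEC, against 903, 698 and 743 CPM, and median UMIs at 13536.5, 17088 and 14844 against 8060.5, 7120 and 6742. The part of depth and Prox1 in the S1P differences was not tested.

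RNA of other classes moved with cycling. Epithelial markers summed to 516, 2479 and 956 CPM in cycling LEC, against 77.6, 331 and 87.9 CPM in the others, with 4 of 6 higher in all 3 libraries, none at 0 and Krt8 leading. Mural markers stood at 3487 CPM in cycling LEC of library 2, against 661 CPM. Plasma cell markers, which the split of LEC did not use, stood at 138, 14815 and 140 CPM in cycling LEC, against 192, 1174 and 211 CPM. More than 2 UMIs of the epithelial, stromal or mural list were found in 4 of 76, 36 of 100 and 7 of 85 cycling LEC, against 62 of 5442, 264 of 4695 and 132 of 7963 others. Without these barcodes, Spns2 stood at 85, 72.5 and 76.0 CPM in cycling LEC, against 136, 135 and 131 CPM. Its log2 fold change was -0.87 ± 0.10 (adjusted p = 9.83e-06, edgeR), with -0.81 ± 0.07 for Plpp3 (adjusted p = 8.86e-07). S1pr1, at 430, 283 and 347 CPM against 470, 402 and 406 CPM, was at -0.37 ± 0.08 (adjusted p = 0.00250) without them, against -0.76 with them. The 3 genes were thus lower in cycling LEC with and without such barcodes, as 3 of 5 tested members, where 33.8% of 12914 genes passed.

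Immediate-early genes respond to stress and to warm digestion as well as to signals. LEC were ranked within each library by their share of UMIs in Fos, Fosb, Jun, Junb, Egr1, Atf3 and Ier2, and the upper and lower tertiles compared. Plpp3 stood at 398, 389 and 378 CPM in the upper tertile and 377, 315 and 326 CPM in the lower (0.44 ± 0.06, adjusted p = 6.26e-04, edgeR). Spns2, at 134, 130 and 130 CPM against 140, 121 and 122 CPM, passed at 0.29 ± 0.06 (adjusted p = 0.00349), although its CPM was higher in only 2 of 3 libraries. That call was lost with cells thinned to 3000 UMIs (0.16, adjusted p = 0.0548). S1pr1, at 434, 365 and 374 CPM against 481, 379 and 436 CPM, had the lower CPM in the upper tertile in each library and a fitted value of 0.10 ± 0.06 (adjusted p = 0.194). These values depended on the scaling: without it the median gene moved to -0.25, Plpp3 to 0.20 (adjusted p = 0.0278), Spns2 to 0.04 (adjusted p = 0.546) and S1pr1, the sign of which turned, to -0.14. Sphk1 was at 0.87 ± 0.39 (adjusted p = 0.106) and passed without library 1 (1.52, adjusted p = 0.00320), with 0.40 to 1.52 when a library was left out. With 2 of 5 tested members higher, 38.7% of 13176 genes passed, 20.1% higher and 18.7% lower. Epithelial markers summed to 10.1, 57.3 and 19.3 CPM in the upper tertile, against 265, 864 and 280 CPM in the lower, all 6 lower in each library, and median UMIs were 8661, 7560 and 7171 against 7457, 6495 and 6096. Plasma cell markers summed to 189, 356 and 203 CPM in the upper tertile, against 194, 5577 and 3622 CPM in the lower. Of these 6 markers, 4 were lower and 1 higher in the upper tertile in all 3 libraries. Without LEC with RNA of other classes, Plpp3 was at 0.36 ± 0.06 (adjusted p = 3.52e-04) and Spns2 at 0.21 ± 0.05 (adjusted p = 0.0104, higher CPM in 1 of 3 libraries), again 2 of 5, where 36.2% of 12591 genes passed. S1pr3 had 29 UMIs in the upper tertile and 23 in the lower and was not tested here, nor on the Clca3a1 axis or in the interferon and cycling groups.

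No member passed between LEC with at least 2 UMIs of Ptgs2 (the inducible prostaglandin synthase; 166, 73 and 103 cells) and LEC with none, where 9.3% of 13889 genes passed, 6.93% higher and 2.36% lower. Spns2 was nearest, with 109, 77.2 and 113 CPM in LEC with Ptgs2 and 135, 123 and 128 CPM in LEC without. The groups did not overlap, but the difference of -0.35 ± 0.12 had an adjusted p of 0.0918 in edgeR. It passed with no filter on low counts (0.0203) and without the 5% of cells with most UMIs (0.010). No member passed either between LEC of high and no interferon-response signal (Isg15, Ifit1, Ifit3, Ifit3b and Rsad2), where 11.1% of 13066 genes did, 8.14% higher and 2.92% lower. In edgeR's model, the unadjusted value was under 0.05 for 1 member of 6 in the Ptgs2 comparison (Spns2) and for 1 of 5 in the interferon one (Plpp3). DESeq2 called 0 members in either comparison. Plpp3 (0.11 ± 0.04, adjusted p = 0.153) passed among LEC of 5000 to 10000 UMIs (0.16, adjusted p = 0.00909), without the 5% of cells with most UMIs (0.14, adjusted p = 0.0125) and without LEC with RNA of other classes (0.14, adjusted p = 0.0142). In that last setting Plpp3 was the 1 member of 5 past the threshold, where 13.6% of 12327 genes passed, and none of 5 passed for Ptgs2, where 12.3% of 12944 did.

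**Figure D5:**
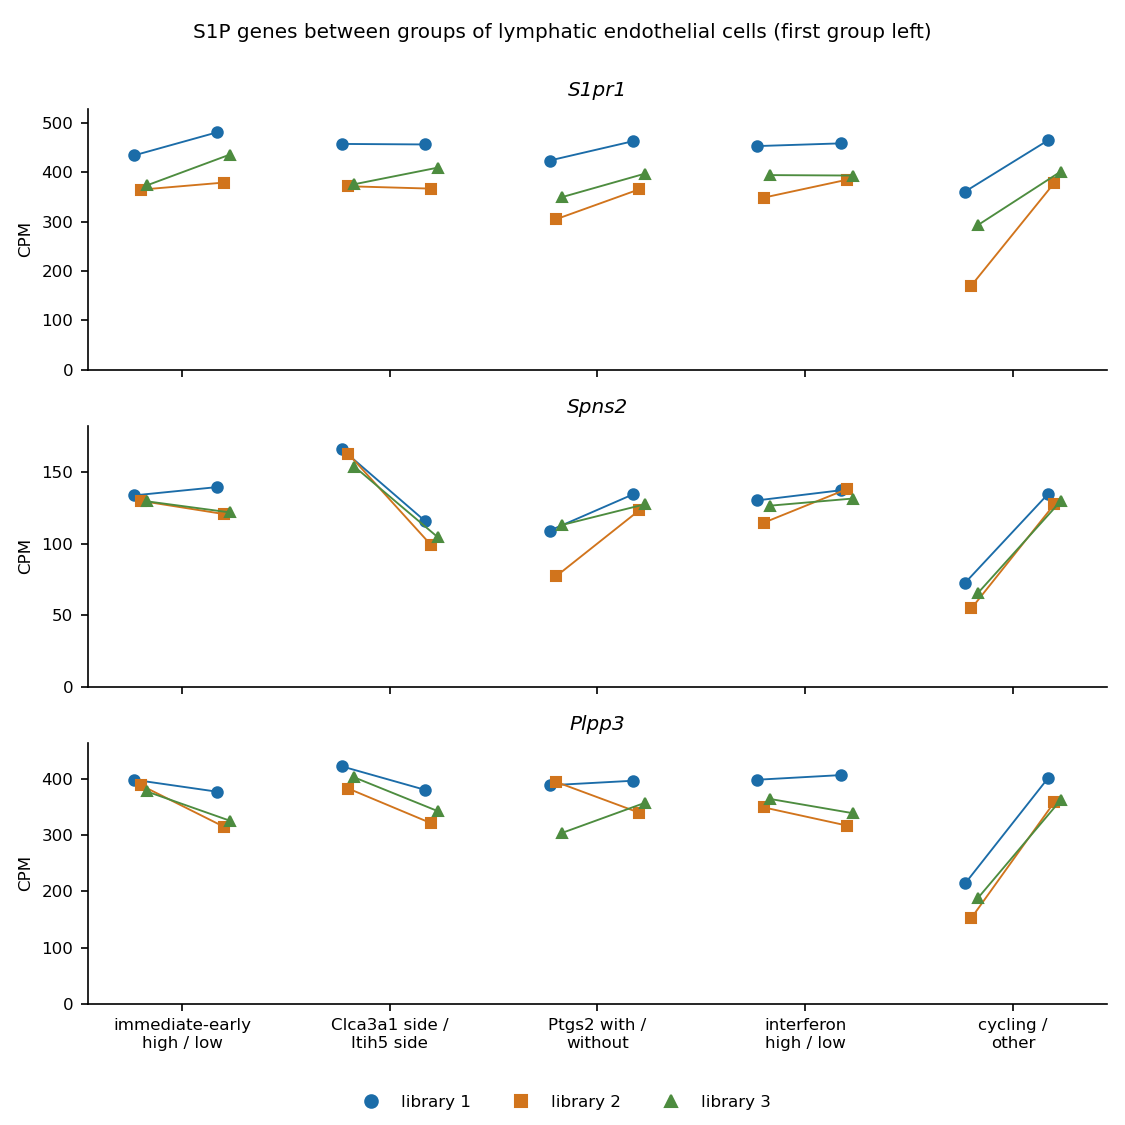
CPM (y axes) of S1pr1, Spns2 and Plpp3 in 5 pairs of LEC groups (x axis), with the 2 sums of a library joined by a line and the group named first on the left. Spns2 is higher on the Clca3a1 side in all 3 libraries, and Spns2 and Plpp3 are lower in cycling LEC.

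Another 69 genes of S1P and sphingolipid metabolism, S1P receptor handling and the related lysophosphatidic acid (LPA) system were followed as lists. Between LEC and BEC, 57 were tested, of which 9 were higher, 13 lower and 35 not past the threshold, with a median log2 fold change of -0.01, against 0.13 over all tested genes. Over all tested genes, 11.2% were higher and 12.1% lower in LEC. Of 26 tested genes listed for the supply of sphingosine and ceramide, 7 were higher in LEC, 1 was lower and 18 did not pass. Of all tested genes, 11.2% were higher. The list also held users of ceramide, such as Sgms1 and Ugcg, and inhibitors of sphingolipid synthesis, such as Ormdl2. Degs1, the desaturase that completes ceramide, stood at 396 ± 28.2 CPM in LEC and 104 ± 12 CPM in BEC, a log2 fold change of 1.94 ± 0.17 (adjusted p = 7.04e-06, edgeR). The neutral ceramidase gene Asah2 (1.49 ± 0.25), the serine palmitoyltransferase subunit gene Sptssa (1.43 ± 0.22), the sphingomyelin synthase gene Sgms1 (1.23) and the efflux pump gene Abcg2 (1.35 ± 0.20) were also higher in LEC, while the ceramidase gene Acer3 was lower (-1.1), a call lost in DESeq2 (adjusted p = 0.0688), without library 1 (0.0851) and without library 2 (0.487).

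Of 14 genes of receptor coupling and handling, 4 were lower in LEC, 1 (Arrb1) was higher and 9 did not pass. Of 6 export and carrier genes, Abcg2 was higher and Abcb1a lower. Abcb1a, the drug efflux pump P-glycoprotein, stood at 5.36 ± 3.8 CPM in LEC and 117 ± 36.6 CPM in BEC (-4.53 ± 0.35, adjusted p = 2.25e-06, edgeR). Grk2, a kinase that desensitizes receptors such as S1pr1, was lower in LEC by -1.38 ± 0.23 on the log2 scale (adjusted p = 9.37e-04), and the LPA receptor gene Lpar6 by -1.20, a call lost with cells thinned to 3000 UMIs (-0.99, adjusted p = 0.0844). All 4 tested LPA genes were lower in LEC. Among them, the receptor gene Lpar1 (-4.22) and Enpp2, whose enzyme autotaxin makes LPA (-2.68), lost their calls when BEC with mural or stromal RNA were left out (-0.55, adjusted p = 0.780, and -0.69, adjusted p = 0.541). The G protein gene Gnai1, at -1.52 (adjusted p = 0.0320), turned to 0.46 (adjusted p = 0.778) there and lost its call without library 1 (adjusted p = 0.0605) or 3 (0.564), in DESeq2 (0.0526), with thinned cells (0.155) and with stricter gates (0.0555). Klf2, a flow-responsive transcription factor, stood at 1361 ± 495 CPM in LEC and 2401 ± 437 CPM in BEC (-0.87 ± 0.18, adjusted p = 0.00338).

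Against stroma, 25 of 58 tested list genes were higher in LEC, 12 lower and 21 not past the threshold, with a median of 0.42, against 0.09 over all tested genes. Over all tested genes, 26.1% were higher and 23% lower in LEC. Acer2, an alkaline ceramidase that frees sphingosine, stood at 152 ± 8.98 CPM in LEC and 2.69 ± 2.0 CPM in stroma (5.58 ± 0.29, adjusted p = 8.96e-06, edgeR), and at 112 ± 54.9 CPM in BEC. Abcg2 (2.77), the lipid exporter gene Abca1 (2.47 ± 0.13), Sgms1 (2.36), Degs1 (2.33), the serine palmitoyltransferase gene Sptlc2 (2.06), Asah2 (2.0) and Klf2 (1.39) were higher in LEC too. S1pr2, the receptor that signals mainly through G12/13, stood at 0.953 ± 0.26 CPM in LEC and 26.5 ± 4.02 CPM in stroma (-4.74 ± 0.27, adjusted p = 1.30e-05). Lpar1 (-6.75), Gnai1 (-3.76) and Enpp2 (-2.36) were lower in LEC. The lyase gene Sgpl1, which destroys S1P inside cells, was lower as well, at 14.8 and 36.5 CPM on average (-1.18 ± 0.22, adjusted p = 0.00341), a gene outside the rule for named genes.

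In T cells of libraries 2 and 3 the list genes included lymphocyte parts of the system. Cd69, which pulls S1pr1 off the surface of lymphocytes, stood at 1.27 CPM in LEC and 188 CPM in T cells on average (log2 fold change -7.11 for LEC over T cells). S1pr4, a lymphocyte S1P receptor, was at -4.37, Abcb1a at -4.64 and the arrestin gene Arrb2 at -3.44. Abca1 (6.13), Asah2 (5.02), Acer2 (4.24), the phosphatase gene Plpp1 (4.19), the G protein gene Gna11 (3.57), Abcg2 (3.46), Degs1 (3.28) and Klf2 (3.15) were higher in LEC. Of 59 tested, 19 were higher, 7 lower and 33 not past the threshold, where 18.4% of all genes were higher and 10.3% lower. S1pr5 had no UMI in any class.

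Between BEC and stroma, 15 of 45 list genes were higher in BEC, 2 lower and 28 not past the threshold, where 15.3% of all genes were higher and 12.5% lower. Acer2 (5.26), Abcb1a (2.54), Klf2 (2.22), Lpar6 (2.03), Abca1 (1.89), Sptlc2 (1.84), Acer3 (1.79), Grk2 (1.46), Abcg2 (1.45) and Gnai2 (1.28) led, all on the log2 scale, and Lpar1 (-2.48) and Gnai1 (-2.20) were lower. Without library 2 the calls of Abca1 (adjusted p = 0.0856), Abcg2 (0.162), Acer3 (0.200), Grk2 (0.125), Gnai1 (0.0673) and Lpar1 (0.0872) were lost. Acer2 was higher than stroma in both endothelial classes, as S1pr1 and Spns2 were.

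Within LEC, on the Clca3a1 side, 10 of 52 list genes were higher and 7 lower, where 9.95% of all genes were higher and 11.4% lower. Among the called list genes were the glucosylceramide synthase gene Ugcg (0.95), Lpar6 (-0.90), Ormdl2, an inhibitor of sphingolipid synthesis (0.64), Gna12 (-0.46), Kdsr, of the same synthesis (0.43), and Asah2 (-0.42). The calls of Kdsr without library 1 (adjusted p = 0.133) or in DESeq2 (0.255) and of Asah2 without library 3 (0.0681) were lost, and without the library block those of Kdsr, Asah2 and Lpar6 (0.0602 to 0.132). In cycling LEC, 13 of 59 were higher and 16 lower, where 39.6% of all genes passed, with the desaturase gene Degs2 (3.54) and the phosphatase gene Plpp2 (2.02) higher and Acer2 (-1.38), Abca1 (-1.28), Klf2 (-1.09) and Degs1 (-1.05) lower. Degs2 and Plpp2 stood at 125 and 192 CPM in epithelium, against 4.28 and 11.3 CPM in LEC. Both calls were lost without the 5% of cells with most UMIs (adjusted p = 0.0941 and 0.199), and that of Plpp2 with thinned cells (0.102). Without LEC with RNA of other classes, Plpp2 was at -0.39 (adjusted p = 0.496), and Degs2, with 1 UMI in cycling LEC, could not be fitted. In the upper immediate-early tertile, 10 of 57 were higher and 18 lower, where 20.1% of all genes were higher and 18.7% lower. Klf2 stood at 342 CPM in the lower tertile and 2381 CPM in the upper (3.12 ± 0.13). Gna13 (0.95), Lpar6 (0.95) and Gnai3 (0.80) were higher there, and Gna11 (-0.54) and Kdsr (-0.47) lower. Gna11 lost its call in DESeq2 (adjusted p = 0.0961) and without the library block (0.100), ranged from -0.72 to -0.30 when a library was left out, and was at -0.17 (adjusted p = 0.0334) without LEC with RNA of other classes.

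LEC with Ptgs2 differed in 5 of 58 list genes, or 8.62%, against 9.3% of all genes. Lpar1 stood at 28.7 CPM in LEC with Ptgs2 and 2.73 CPM in LEC without (3.43). It stood at 337 CPM in stroma, and stromal markers summed to 441, 1797 and 1360 CPM in LEC with Ptgs2, against 31.5, 150 and 54.7 CPM in LEC without, with all 6 higher in each library. Macrophage markers, too, stood at 174, 1255 and 521 CPM against 6.29, 56.0 and 26.1 CPM. Without LEC with epithelial, stromal or mural RNA, a split that used no macrophage markers, Lpar1 rested on 1, 0 and 7 UMIs in LEC with Ptgs2 (3.17, adjusted p = 0.0145). Lpar6 (0.64), Gna13 (0.60) and Grk2 (0.55) were higher, and the ceramide synthase gene Cers4 (-0.48) lower. With thinned cells, Lpar6 (0.35, adjusted p = 0.707, edgeR) and Grk2 (0.27, 0.786) lost their calls. Among cells of 5000 to 10000 UMIs, Lpar6 (adjusted p = 0.230, edgeR), Grk2 (0.756) and Cers4 (-0.22, 0.587) lost theirs. Grk2 was not called in DESeq2 (adjusted p = 0.0965) or without scaling (0.0515). Median UMIs were 10470.5, 11157 and 9041 with Ptgs2, against 8079, 7168 and 6776 without. Between the interferon groups, 8 of 58 passed, or 13.8%, against 11.1% of all genes, with Klf2 (0.38), Gna13 (0.37) and Asah2 (0.25) higher and Cers4 (-0.39) and Ugcg (-0.36) lower. With 1 library left out, the calls of Grk2 (any library, adjusted p up to 0.211), Lpar6 (library 1, 0.122, or 3, 0.0918) and Cers4 (library 3, 0.0748) in LEC with Ptgs2 were lost, as was that of Asah2 in the interferon groups (library 1, 0.0908, or 3, 0.0545), which DESeq2 did not call either (0.179). Without the library block, the calls of all 5 genes named for Ptgs2 (adjusted p = 0.0997 to 0.303) and of all 5 named for interferon (0.143 to 0.806) were lost.

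The genes whose class pattern was most like each S1P gene were found by Pearson's r of log2(CPM + 1) over 12 sums, of LEC, BEC, stroma and epithelium in 3 libraries, among 9723 genes. The sums of a library share its depth and free RNA, so r is a description. S1pr1 was nearest to Shank3 (0.997), the endothelial lectin gene Clec1a (0.996) and the endothelial receptor gene Tie1 (0.995). Spns2 was nearest to Ccm2l (0.995) and the transcription factor genes Sox18 (0.994) and Tal1 (0.992), and Plpp3 to Mprip (0.996), the basement membrane collagen gene Col4a2 (0.994) and Ddah2 (0.994). S1pr3 was nearest to Rgs17 (0.994), Fendrr (0.993) and Runx1t1 (0.990), Sphk1 to Dmd (0.984), Dach1 (0.969) and Ncald (0.967), and Sphk2 to Mrps31 (0.990), Aifm1 (0.979) and Bcap31 (0.972).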

How the data were processed

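The authors deposited UMI counts, whole numbers with no scaling, for the genes and barcodes of 3 libraries. The submitters' processing notes name Cell Ranger 6.1.2, bcl2fastq 2.2 and the mm10 build, while the annotation release and strand setting are not given in the sources used here. From these deposited counts, barcodes with at least 500 genes and at most 15% mitochondrial UMIs were gated, and a barcode in 2 gates was left out of both (49 barcodes). No doublet caller was run. CPM was computed from summed UMIs. Sums per library and class with at least 20 cells went into edgeR's quasi-likelihood test (version 4.0.16, R 4.3.3) after filterByExpr and TMM scaling, with the library as a block, because paired sums share 1 pool of animals and 1 run. Benjamini-Hochberg adjustment at 0.05 ran over all tested genes except gate genes. SE was taken as the size of the log2 fold change divided by the root of F. The 95% intervals of log2 fold changes apply a normal multiplier to this SE, so they are narrower than the F test allows. Small p-values draw on the spread of all genes. DESeq2 1.42.0 was an alternative. On simulated counts for LEC against BEC over 13151 genes, the fit found 25.3% of genes with a log2 change of 1 and 62.8% with a log2 change of 2, and called 2 unchanged genes.

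For T cells the planned 3-library fit was replaced by libraries 2 and 3, since library 1 held 13 T cells. Named list genes had to pass with the same sign in every library fitted and reach 20 CPM, the 12 largest log2 fold changes per class comparison and the 6 largest within LEC. Members and lists were chosen with earlier results of these data known, and the splits of BEC and LEC and the fits without scaling were added after the values were seen. Limits for a count of 0 use 3 counts and, like all shares, cover counting error only. Gene positions are from GENCODE M21 (GRCm38), and sequences from RefSeq (GRCm38.p6).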

Additional observations from a re-analysis of the deposited data

How the results depend on the processing

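S1pr1, Spns2, Plpp3, Sphk1 and S1pr3 kept their directions and calls for LEC over stroma under all alternatives run, and Plpp3 and Sphk1 for LEC over BEC. S1pr3 kept its call for LEC over BEC only where it could be fitted. It could not be fitted with BEC free of mural or stromal RNA, where the 121 BEC held no UMI of it, so its difference there was not kept. For LEC over BEC, S1pr1 and Spns2, not called, turned to -0.02 and -0.31, and the called list gene Gnai1 to 0.46, with BEC free of mural or stromal RNA, and Sphk2, not called, to -0.01 with thinned cells. Leaving out a library gave -0.12 to 0.50 for Spns2 there. For BEC over stroma, Sphk1 turned to -0.02 (DESeq2 size factors), -0.06 (DESeq2), -0.01 (no scaling), -0.84 (BEC free of mural or stromal RNA), -0.03 (1000 genes and 10% mitochondrial), -0.08 (without the 5% of cells with most UMIs), -0.12 (wider gates) and -0.21 to 0.11 (leaving out a library), while S1pr3 lost its call at -0.84 in DESeq2 and ranged from -0.97 to -0.59 when a library was left out.

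Within LEC the called list gene Plpp2 turned to -0.39 in cycling LEC without LEC that held epithelial, stromal or mural RNA, a setting added after the values were seen. In that setting the uncalled S1pr1 turned on the Clca3a1 axis (-0.01) and in the interferon groups (0.04), Plpp3 with Ptgs2 (-0.17) and Sphk2 in cycling LEC (-0.12). All other values that turned within LEC were uncalled. Without scaling these were S1pr1 (-0.14) and Sphk2 (-0.22) in the immediate-early groups, S1pr1 (-0.03) on the Clca3a1 axis and Plpp3 (-0.01) with Ptgs2. At 5000 to 10000 UMIs they were S1pr1 in the immediate-early groups (-0.00054) and on the Clca3a1 axis (-0.04), Sphk1 (-0.31), Sphk2 (0.20) and Plpp3 (-0.09) with Ptgs2, and S1pr1 (0.04), Spns2 (0.02) and Sphk1 (-0.20) in the interferon groups. With thinned cells they were S1pr1 on the Clca3a1 axis (-0.02) and in the interferon groups (0.03), Plpp3 with Ptgs2 (-0.05), and Sphk1 (-0.17) and Sphk2 (-0.23) in cycling LEC. Without the 5% of cells with most UMIs they were S1pr1 on the Clca3a1 axis (-0.0015) and in the interferon groups (0.03) and Plpp3 with Ptgs2 (-0.06). With no filter on low counts they were Plpp3 with Ptgs2 (-0.03) and S1pr1 in the interferon groups (0.0034). Leaving out a library gave ranges of -0.09 to 0.14 (Sphk2, immediate-early), -0.01 to 0.08 (S1pr1, Clca3a1 axis), -0.52 to 0.15 (Sphk2) and -0.09 to 0.12 (Plpp3) with Ptgs2, and -0.05 to 0.02 (S1pr1) and -0.07 to 0.04 (Sphk2) in the interferon groups.

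The counts of called genes moved by over 1.5 times as follows, from 3927 (LEC over T cells), 2305 (BEC over stroma), 5102 (immediate-early), 2604 (Clca3a1 axis), 1291 (Ptgs2), 1445 (interferon) and 5489 (cycling). DESeq2 gave 2196 for T cells, 3092 for immediate-early, 1381 for the Clca3a1 axis and 758 for interferon. Without the replicate block, whose pairing comes from the shared library, the counts were 2748, 963, 19 (Ptgs2) and 118 (interferon). Besides these, the fit without the block ended the calls of Sphk1 and Plpp3 on the Clca3a1 axis and of S1pr1 in cycling LEC and no other call of the 6 genes. Thinned cells gave 1526 for BEC over stroma, 3341 for immediate-early, 845 for Ptgs2 and 2294 for cycling, the band of 5000 to 10000 UMIs 732 for Ptgs2, and removal of the 5% of cells with most UMIs 2651 for cycling. Leaving out a library gave 719 to 2479 (BEC over stroma), 1628 to 2614 (Clca3a1 axis) and 824 to 1482 (Ptgs2). Thinning drops counts by construction, and the cause of the other shifts was not tested. The fits in the band of UMIs for class comparisons and cycling, and leaving out a library for T cells, were not run because too few cells or libraries were left. Depth limits S1pr3 in LEC and the scarce genes in BEC, where Sphk2 rests on 15 UMIs.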

Other observations

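Barcodes in no gate were 7.92% of the analysed cells and enter no comparison. In them S1pr1 stood at 256, 144 and 284 CPM in libraries 1, 2 and 3.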
